A study of Mus musculus with 6 samples.

Results

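The genes examined here are the Wnt ligands, their Frizzled receptors and the proteins that carry the signal into the cell. They were chosen by name and not by their values: every gene whose symbol begins with Wnt or Fzd and a digit, which gave 19 ligands and 10 Frizzleds, and 18 further genes of the pathway. These 47 genes, among 22527 gene symbol entries on the array, were represented by 101 of 45077 probe sets. On this array short probes are read together in sets, each aimed at a stretch of a transcript, and 32 of the 47 genes had more than 1 set. Each gene was read from its brightest probe set, the one whose mean over the 3 groups was highest.

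RNA came from the cerebral cortex of 6 male mice, labelled as 16 weeks old, with 2 mice in each of 3 groups. The authors name that age for the mice used, which were acclimatised, dosed and tested before the tissue was taken. SAMP8 is an inbred, non-transgenic mouse strain with accelerated senescence, and SAMR1 is a related strain that ages normally. SAMP8 mice were given sugarcane top ethanolic extract (STEE) by mouth at 20 mg/kg (the group SAMP8 + STEE) or the same volume of water (SAMP8 + Water), and SAMR1 mice were given water (SAMR1 + Water), for 30 days and then through 8 days of behavioral testing. The strain comparison, SAMP8 + Water against SAMR1 + Water, covers everything that separates these lines. The tables used give the authors' mean of each group as a log2 signal, rounded to 2 decimals. No value of a single mouse was used, so no SD or test stands beside the differences below. Rounding alone can move a difference by up to 0.01 on the log2 scale. Precision is limited by the small number of arrays, and whether a difference exceeds the spread between mice was not tested.

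Wnt proteins are secreted, lipid-modified ligands that bind a Frizzled receptor together with Lrp5 or Lrp6. Without a ligand, a complex built on Axin and Apc lets Gsk3b mark β-catenin (Ctnnb1) for destruction. With a ligand, Dishevelled (Dvl) proteins help to switch off that complex, β-catenin accumulates, and it activates genes together with the DNA-binding factors Lef1 and Tcf7 and their relatives. In the brain the pathway is known for patterning the hippocampus and thalamus, for building brain blood vessels and for the formation of synapses. Other branches that do not use β-catenin act through Frizzleds on axon growth and cell polarity.

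The Lef/Tcf factors favour the word CTTTGNN in which both N are A or T. The 4 words this gives, of which a stretch can match no more than 1, were searched on both strands of the 250 bases before each annotated start in RefSeq (GRCm38.p6), and 31 of the 47 genes had an entry, with 39 start sites. A match was found before 5 of the 39 starts (12.8%), against 14.8% of all 32851 starts in the same table. The matches are shown because they belong to a receptor, 2 ligands, an antagonist and a Lef/Tcf factor itself. Each line gives the match in capitals with 20 bases on either side, 5′ to 3′ on the strand of the gene.
Lef1, chr3:131156127-131156173, + strand: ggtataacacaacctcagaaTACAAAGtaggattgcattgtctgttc
Dkk1, chr19:30549568-30549633, - strand: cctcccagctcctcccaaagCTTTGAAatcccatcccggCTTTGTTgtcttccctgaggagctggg
Fzd7, chr1:59481997-59482043, + strand: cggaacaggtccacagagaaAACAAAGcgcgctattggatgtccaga
Wnt11, chr7:98835041-98835087, + strand: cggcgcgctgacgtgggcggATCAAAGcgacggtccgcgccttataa
Wnt5b, chr6:119449431-119449477, - strand: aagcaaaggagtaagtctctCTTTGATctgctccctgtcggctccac

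*Lef1* had 4 annotated starts, and its match lay 147 bases before only 1 of them. *Dkk1* carried 2 matches, 117 and 98 bases before its start. A match in these letters is a description and not a shown binding site. The differences of these 5 genes at their brightest probe sets ran from -0.17 (*Wnt11*) to 0.04 (*Wnt5b*) between SAMP8 + Water and SAMR1 + Water, and from -0.18 (*Lef1*) to 0.05 (*Wnt11*) between SAMP8 + STEE and SAMP8 + Water, on the log2 scale.

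Between SAMP8 + Water and SAMR1 + Water, 2 of the 47 genes lay at least 1.2-fold apart, 1 higher (*Tcf7*) and 1 lower (*Tnik*) in SAMP8 + Water. That is 4.26% of the members, against 6.86% of all genes read from their brightest probe set (3.68% higher and 3.19% lower). Between SAMP8 + STEE and SAMP8 + Water 1 gene lay that far apart, *Tnik*, which was higher with STEE. This 2.13% stood beside 2.02% of all genes (1.1% higher and 0.923% lower). The median difference of the members was 0.01 for the strains and -0.02 for STEE, with a median of 0 over all genes in both comparisons. The median size of the difference, regardless of sign, was 0.07 for the strains and 0.06 for STEE in the members and in all genes alike.

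At a lower bar of 1.1-fold, 16 of the 47 genes (34%) were apart between the strains, 6 higher and 10 lower in SAMP8 + Water. Of all genes 24.8% were past it, 2793 higher and 2790 lower. With STEE 7 genes (14.9%) were apart, 1 higher and 6 lower. Of all genes 15.2% were past it, 1742 higher and 1676 lower. The 6 lower genes were *Wnt1*, *Fzd9*, *Apc*, *Lef1*, *Tcf7* and *Sfrp2*.

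**Figure D1:**
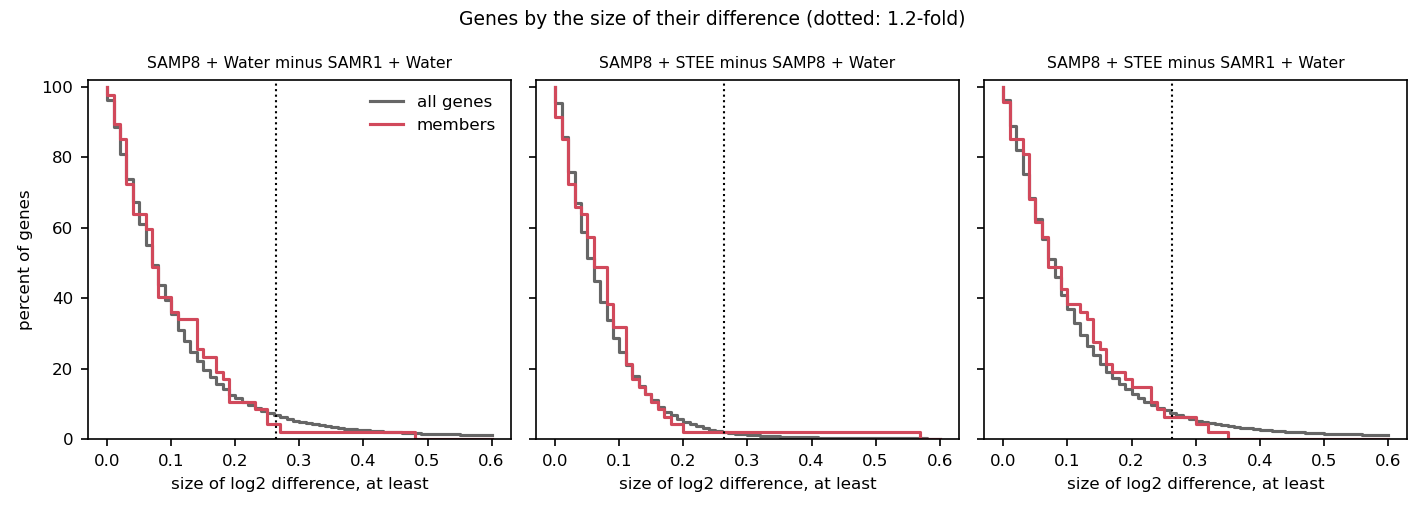
Percent of genes (vertical axis) whose log2 difference was at least the size on the horizontal axis, for the 47 members (red) and all 22527 genes (grey), in 3 comparisons of group means. The 2 curves cross in each panel. At 0.14 between the strains 34.0% of the members stood beside 24.8% of all genes, and at 0.28 it was 2.13% beside 6.24%. At 0.08 with STEE 48.9% stood beside 39.0%. Past the dotted line at 1.2-fold the members number 2, 1 and 3.

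**Figure D2:**
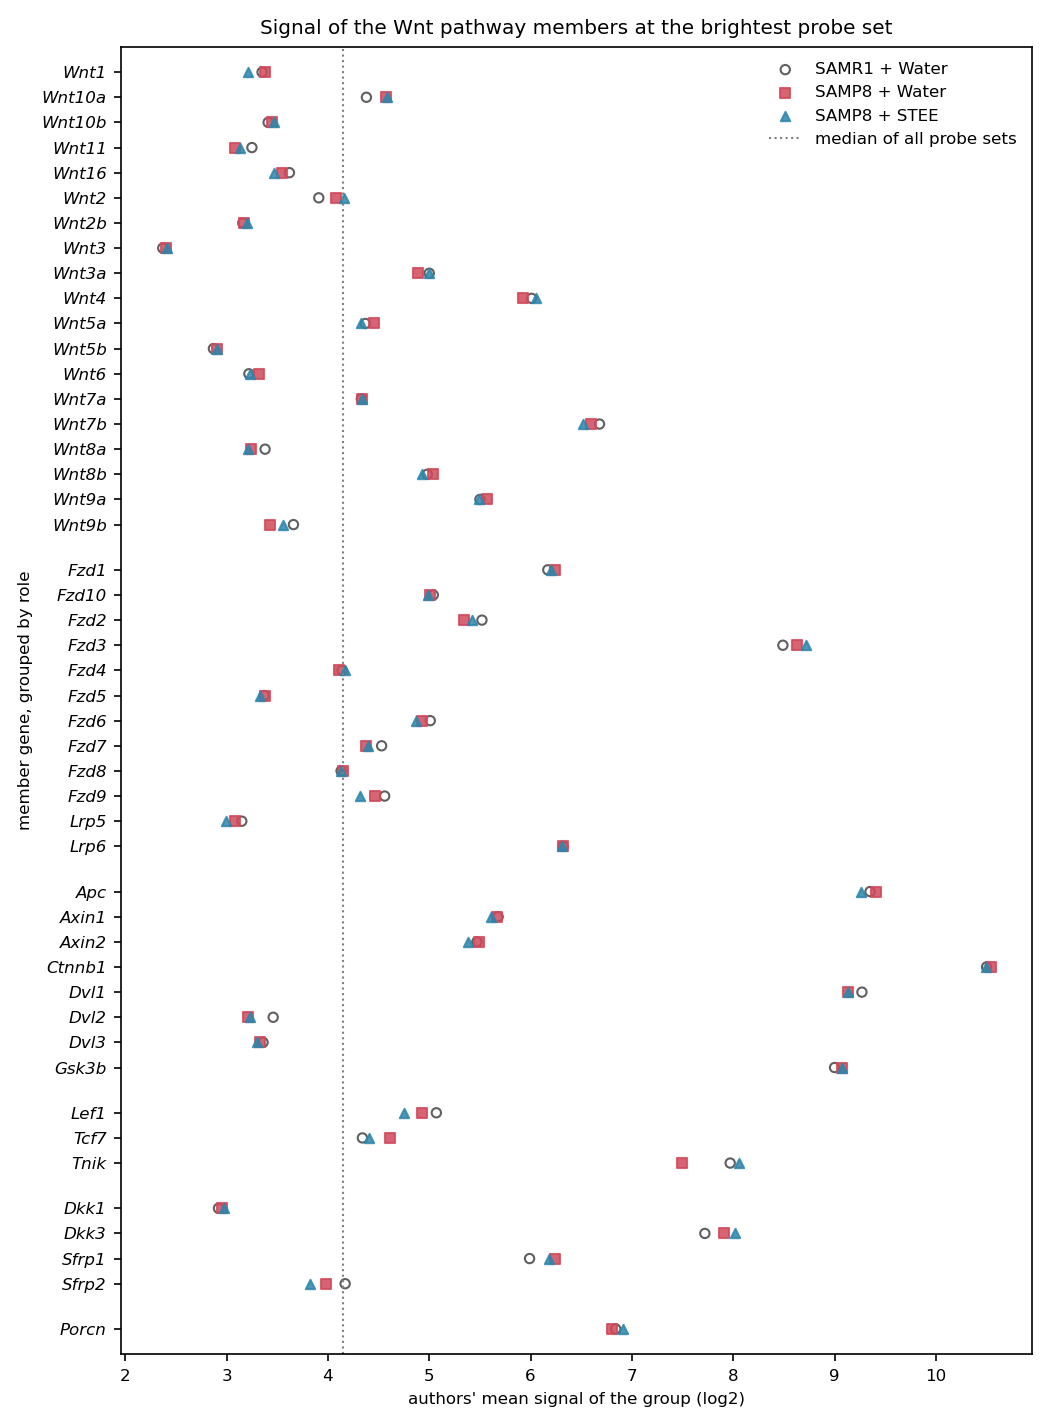
Authors' mean log2 signal (horizontal axis) of each member at its brightest probe set in SAMR1 + Water (open circles), SAMP8 + Water (red squares) and SAMP8 + STEE (blue triangles), grouped by role. The dotted line is the median of all probe sets, 4.15. The 3 marks of a gene lie almost on top of each other, except for genes such as *Tnik*, *Lef1*, *Dkk3* and *Sfrp2*. Signals of different probe sets cannot be compared with each other.

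All 19 Wnt ligand genes were measured, and none reached 1.2-fold in any comparison at its brightest probe set, although a second probe set of *Wnt7a* did. The 3 ligands with the brightest probe sets were *Wnt7b*, *Wnt4* and *Wnt9a*. *Wnt7b*, which with *Wnt7a* directs the growth of brain blood vessels, gave authors' means, as log2 signals, of 6.68 in SAMR1 + Water, 6.60 in SAMP8 + Water and 6.52 in SAMP8 + STEE. The means thus stepped down by -0.08 and again by -0.08, with a difference of -0.16 between SAMP8 + STEE and SAMR1 + Water. Its other probe set gave 4.24, 4.44 and 4.24, which is not the same order. *Wnt4*, best known from kidney and ovary development, had means of 6.01, 5.93 and 6.05, and *Wnt9a*, known from joint formation, had 5.50, 5.57 and 5.49. Neither gene moved by more than 0.12 in either comparison.

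For 10 of the 19 ligands the brightest probe set was at or below the median signal of all probe sets in every group. The widest strain differences among the ligands were those of *Wnt9b*, with means of 3.66, 3.43 and 3.56 in SAMR1 + Water, SAMP8 + Water and SAMP8 + STEE, and of *Wnt10a*, with 4.38, 4.57 and 4.58. *Wnt9b* was thus lower by -0.23 and *Wnt10a* higher by 0.19 in SAMP8 + Water, and 9.67% and 14.1% of all genes lay at least as far apart. With STEE the ligands ran from -0.17 for *Wnt1*, which patterns the midbrain, to 0.13 for *Wnt9b*. *Wnt1* had means of 3.35, 3.38 and 3.21 from a single, dim probe set. *Wnt2*, a ligand of the β-catenin branch, had means of 3.91, 4.08 and 4.16, the widest difference of a ligand at its brightest probe set between SAMP8 + STEE and SAMR1 + Water, 0.25.

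*Wnt3a* and *Wnt8b*, which mark the embryonic tissue that organises the hippocampus, had means of 5.0, 4.89 and 5.0 and of 4.98, 5.04 and 4.93. Both stayed within 0.11 in each comparison. *Wnt5a*, the main ligand of the branches that do not use β-catenin, gave 4.37, 4.45 and 4.33 at its brightest probe set and 4.23, 3.99 and 4.21 at the next, so that the sign of both differences depended on the probe set. *Wnt7a*, which promotes synapse formation, was level at its brightest probe set (4.33, 4.34 and 4.34). Its second probe set, of nearly the same signal, gave 4.41, 4.13 and 4.02, a strain difference of -0.28 and a difference of -0.39 between SAMP8 + STEE and SAMR1 + Water, both past 1.2-fold. The third was dim and stayed within 0.07 in both comparisons.

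Among 12 receptor genes, 10 Frizzleds and the co-receptors *Lrp5* and *Lrp6*, none reached 1.2-fold at the brightest probe set. *Fzd3*, which guides growing axons through the cell polarity branch, had means of 8.49 in SAMR1 + Water, 8.63 in SAMP8 + Water and 8.72 in SAMP8 + STEE. At the brightest probe set it was the widest receptor upward in both comparisons, at 0.14 and 0.09. Its 6 probe sets did not agree between the strains: 3 were higher in SAMP8 + Water, 2 of them by 0.29 and 0.33, and 3 were lower by up to -0.10. With STEE only the brightest was higher, 1 was level and 4 were lower, by -0.03 to -0.17, and the mean over the 6 was -0.047. *Fzd2*, a receptor for several ligands, had the widest strain difference downward, with means of 5.52, 5.34 and 5.42. Of its 3 probe sets, 2 were lower in SAMP8 + Water and all 3 were higher with STEE, the dimmest of them by 0.30.

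*Fzd7*, a receptor of stem and progenitor cells, was lower by -0.15 in SAMP8 + Water at both of its probe sets, with means of 4.53, 4.38 and 4.40 at the brighter. *Fzd9*, known in the hippocampus, stepped down from 4.56 in SAMR1 + Water to 4.46 and 4.32, and its difference of -0.14 with STEE was the widest of the receptors downward. *Fzd1* had 6.17, 6.24 and 6.20. *Fzd4*, the receptor for Norrin in vessels of the retina and brain, had 4.14, 4.11 and 4.17. *Fzd5*, *Fzd6*, *Fzd8* and *Fzd10* differed by no more than 0.08 in either comparison at their brightest probe sets. The co-receptor *Lrp6* was the steadiest member, with 6.32, 6.32 and 6.31 at the brightest probe set and 4.46, 4.47 and 4.47 at the other. The symbol cell of its brightest probe set also lists a second gene, 2210419D22Rik. *Lrp5* had 3.15, 3.08 and 2.99 from a dim probe set.

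The 8 signal transducers stayed below 1.2-fold at their brightest probe sets as well. β-Catenin itself, *Ctnnb1*, had means of 10.50, 10.54 and 10.49 at its brightest probe set. All 3 of its probe sets were higher in SAMP8 + Water than in SAMR1 + Water, by 0.04, 0.17 and 0.24, and with STEE they differed by -0.05, -0.10 and 0.01. The kinase *Gsk3b*, with 6 probe sets, had 9.0, 9.07 and 9.07 at the brightest, and its probe sets ran from -0.18 to 0.15 between the strains and from -0.08 to 0.08 with STEE. Neither comparison gave *Gsk3b* a common direction.

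*Apc*, a scaffold of the destruction complex, was lower with STEE at every probe set. Its brightest probe set had means of 9.35 in SAMR1 + Water, 9.41 in SAMP8 + Water and 9.26 in SAMP8 + STEE. All 4 probe sets were lower with STEE than in SAMP8 + Water, by -0.15, -0.20, -0.25 and -0.13 from brightest to dimmest, none reaching 1.2-fold. Between SAMP8 + STEE and SAMR1 + Water the third did, at -0.34. Between the strains 3 of the 4 were higher in SAMP8 + Water, by 0.06 to 0.16, and 1 was lower by -0.09. *Axin1*, the other scaffold, had 5.68, 5.67 and 5.61. *Axin2*, a feedback inhibitor that is widely read as a measure of β-catenin activity, had 5.47, 5.49 and 5.38. Its strain difference of 0.02 was near the rounding of the table, and with STEE its probe sets went opposite ways, at -0.11 for the brighter and 0.17 for the dimmer.

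Of the Dishevelled genes, *Dvl1* had 9.27, 9.13 and 9.13, a strain difference of -0.14, with both of its probe sets lower in SAMP8 + Water. *Dvl2* had 3.46, 3.21 and 3.23, the widest strain difference among the transducers at -0.25, just short of the 0.263 that 1.2-fold needs. Its signal was below the median of all probe sets, and its other probe set differed by 0.03. *Dvl3* had 3.36, 3.33 and 3.30 from its only probe set. With STEE all 3 Dishevelled genes stayed within 0.03 at the brightest probe set.

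**Figure D3:**
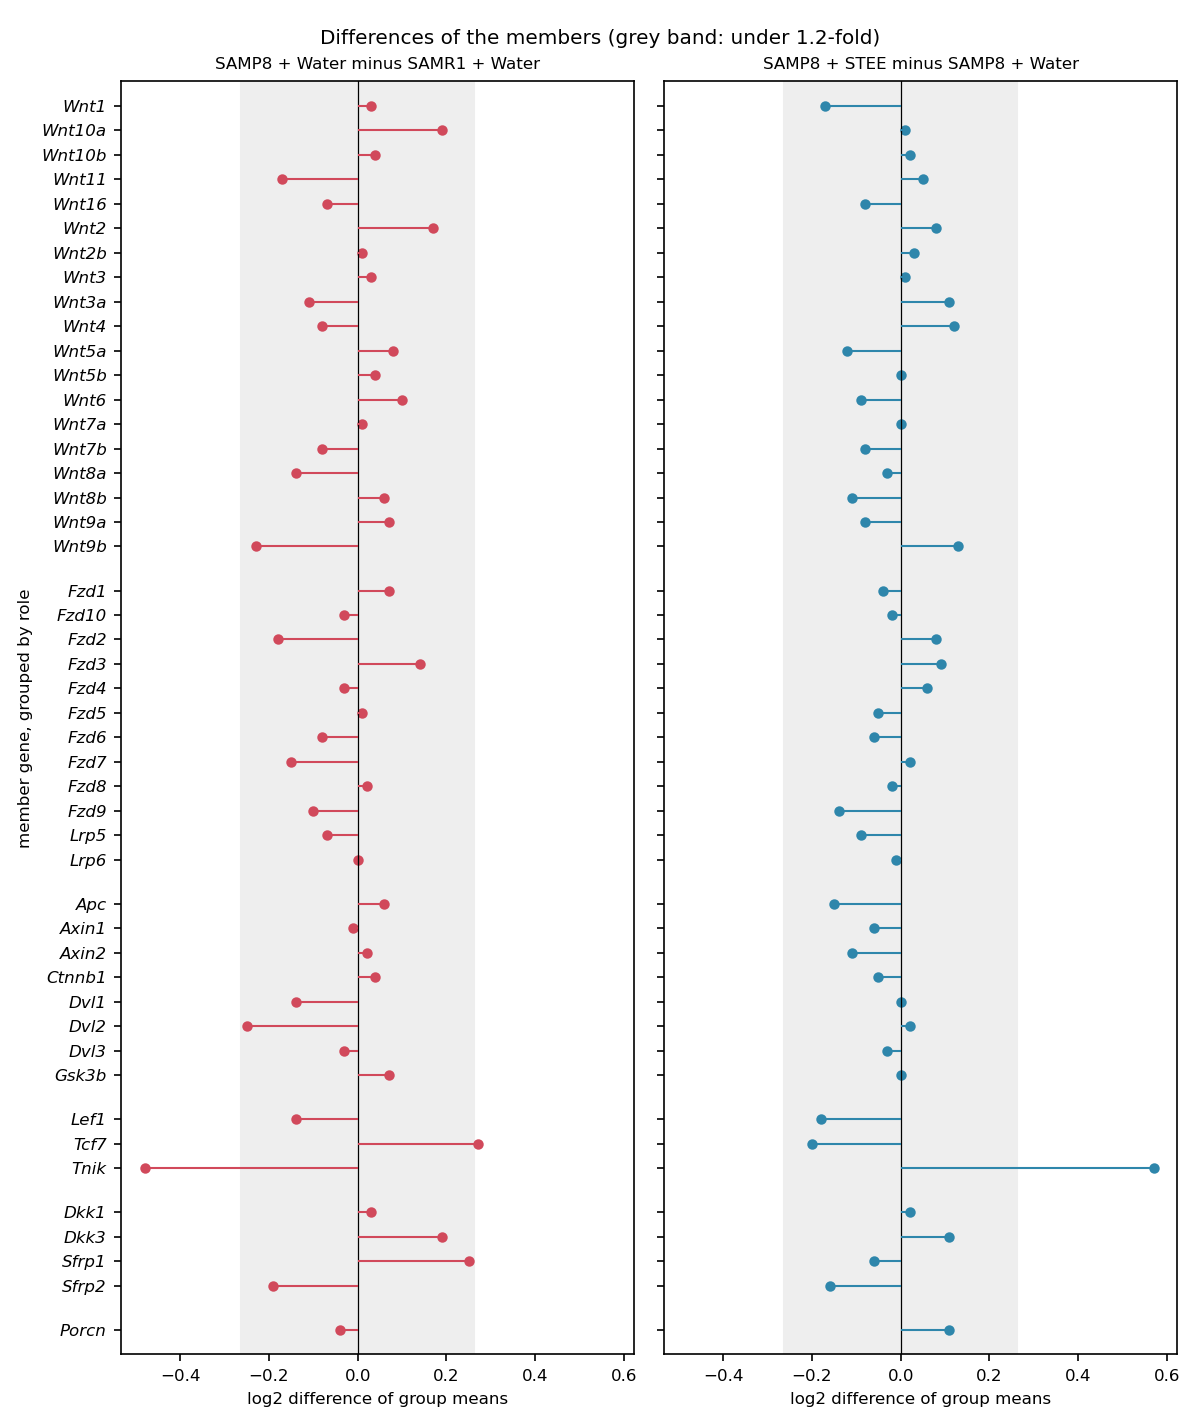
Log2 difference between group means (horizontal axis) of each member at its brightest probe set, for SAMP8 + Water minus SAMR1 + Water (left, red) and SAMP8 + STEE minus SAMP8 + Water (right, blue), grouped by role. The grey band is under 1.2-fold. *Tnik* (-0.48) and *Tcf7* (0.27) lie outside it on the left, and *Tnik* alone (0.57) on the right.

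Between the strains 2 members (4.26%, beside 6.86% of all genes) were past 1.2-fold at the brightest probe set, both of them nuclear partners. With STEE it was 1 (2.13%, beside 2.02%), also a nuclear partner. *Tcf7*, a Lef/Tcf factor best known from T cells, had means of 4.34 in SAMR1 + Water, 4.61 in SAMP8 + Water and 4.41 in SAMP8 + STEE. It was higher by 0.27 in SAMP8 + Water and lower by -0.20 with STEE, and 6.86% and 5.72% of all genes lay at least as far apart. The strain value lies just inside 1.2-fold, with rounding enough to take it out, while *Sfrp1* at 0.25 and *Dvl2* at -0.25 lie just outside. Its other probe set, dimmer, had 3.73, 3.69 and 3.63.

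*Lef1*, a Lef/Tcf factor that in the adult brain is known from the thalamus and midbrain, had means of 5.07, 4.93 and 4.75. It was lowest in SAMP8 + STEE, by -0.18 from SAMP8 + Water and by -0.32 from SAMR1 + Water, and highest in SAMR1 + Water. Its other probe set, with a signal near 3, differed by 0.05 and -0.09. Of all genes, 4.90% lay at least as far apart as *Lef1* between SAMP8 + STEE and SAMR1 + Water.

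*Tnik*, a kinase that binds the β-catenin complex in the nucleus and is also found at synapses, gave the widest member differences, but at 1 of its 4 probe sets only. That probe set had means of 7.97, 7.49 and 8.06 in SAMR1 + Water, SAMP8 + Water and SAMP8 + STEE. The differences were -0.48 between the strains and 0.57 with STEE, and 1.75% and 0.204% of all genes lay at least as far apart. The next probe set, with nearly the same signal, had 7.72, 7.66 and 7.62, or -0.06 and -0.04. The remaining pair had 6.70, 6.71 and 6.87, and 6.49, 6.50 and 6.33, each within 0.01 between the strains and 0.16 and -0.17 with STEE. Averaged over its 4 probe sets *Tnik* differed by -0.13 between the strains and 0.13 with STEE. Which part of the transcript each probe set reads was not examined here. Both differences use the same SAMP8 + Water mean, and any error in it enters them with opposite signs.

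**Figure D4:**
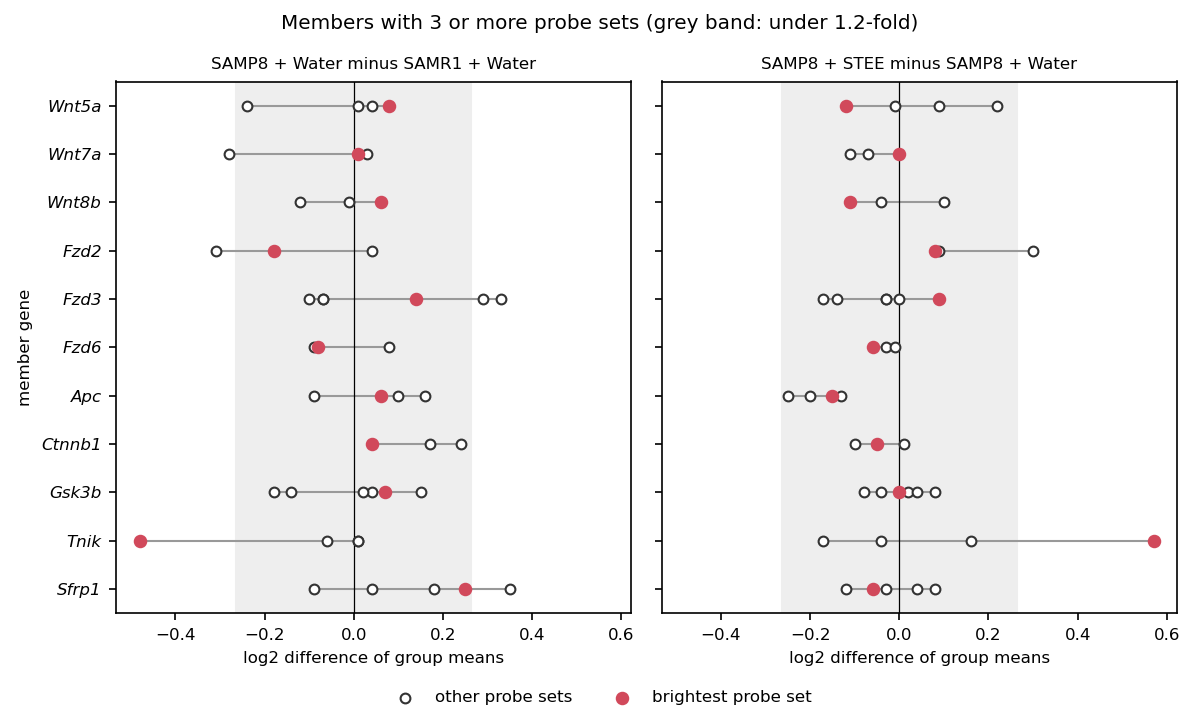
Log2 difference (horizontal axis) of every probe set of the 11 members with at least 3 probe sets, for SAMP8 + Water minus SAMR1 + Water (left) and SAMP8 + STEE minus SAMP8 + Water (right). Red points are the brightest probe set of a gene, open points the others, and the grey band is under 1.2-fold. *Tnik* has 1 point far from its other 3 in both panels, and the 4 points of *Apc* all lie left of 0 in the STEE panel.

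The 4 genes grouped here as secreted antagonists were placed by gene family, and their effect on Wnt signals in this tissue was not tested. None of the 4 reached 1.2-fold between the strains at its brightest probe set. At 1.1-fold, which 24.8% of all genes passed, 3 lay apart, *Dkk3* and *Sfrp1* higher and *Sfrp2* lower in SAMP8 + Water. *Dkk3*, a member of the Dickkopf family that is made by neurons, had means of 7.72 in SAMR1 + Water, 7.91 in SAMP8 + Water and 8.02 in SAMP8 + STEE, and its second probe set had 7.67, 7.82 and 7.96. Both probe sets thus gave the same order with nearly the same steps, 0.19 and 0.11 at the first and 0.15 and 0.14 at the second. Neither step reached 1.2-fold, and the difference between SAMP8 + STEE and SAMR1 + Water, 0.30 and 0.29, did.

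*Sfrp1*, which binds Wnt ligands outside the cell, had 5.99, 6.24 and 6.18, a strain difference of 0.25 and a difference of -0.06 with STEE. Of its 5 probe sets 4 were higher in SAMP8 + Water, by 0.04 to 0.35, and 1, marked by its name as prone to cross-hybridisation, was lower by -0.09. *Sfrp2*, of the same family, ran the other way, with 4.17, 3.98 and 3.82 from its only probe set. It was lower by -0.19 in SAMP8 + Water and by a further -0.16 with STEE, which made -0.35 between SAMP8 + STEE and SAMR1 + Water, a size that 3.97% of all genes reached. Its signal was above the median of all probe sets in SAMR1 + Water only. *Dkk1*, an inhibitor that blocks Lrp5 and Lrp6, was dim and level, with 2.92, 2.95 and 2.97. *Porcn*, the enzyme that adds the lipid without which Wnt ligands are not secreted, had 6.84, 6.80 and 6.91, a difference of 0.11 with STEE.

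SAMP8 + STEE and SAMR1 + Water differ in strain and in treatment, and their difference is the sum of the differences above. By it 3 of the 47 genes lay at least 1.2-fold apart, *Dkk3* higher and *Lef1* and *Sfrp2* lower in SAMP8 + STEE. That is 6.38% of the members, against 7.38% of all genes (4.44% higher and 2.93% lower). At 1.1-fold it was 16 genes (34%), with 26.6% of all genes past that bar. *Tnik* and *Tcf7* were not among the 3, at 0.09 and 0.07.

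Counted by probe set, 7 of the 101 lay at least 1.2-fold apart between the strains, against 7.11% of all 45077 probe sets, and they belonged to *Tnik*, *Tcf7*, *Fzd2*, *Fzd3*, *Sfrp1* and *Wnt7a*. With STEE 2 of the 101 did, against 2.01% of all probe sets, from *Tnik* and *Fzd2*. Between SAMP8 + STEE and SAMR1 + Water it was 6 of the 101, against 7.85% of all probe sets, from *Apc*, *Dkk3*, *Lef1*, *Sfrp2* and *Wnt7a*. Probe sets of a gene read the same mice and are not replicates. Of the 32 members with several probe sets, 6 (18.8%) had all of them on the same side of 0 between the strains, beside 41.8% of all 10574 genes with several. With STEE the number was 17 of 32 (53.1%), beside 38.2% of all such genes. Dim probe sets are included in these counts. Members and all genes were not matched for number of probe sets, signal or size of difference, so these shares cannot be read as a trait of the pathway.

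The rest of the pathway was taken from a list of 56 further genes. The list was chosen with earlier results of these data known, so its shares are not an unbiased measure of the pathway. Of the 56 genes, 55 were found, all except *Kremen2*. Between the strains 12 of the 55 lay at least 1.2-fold apart, 8 higher and 4 lower in SAMP8 + Water, or 21.8%, beside 4.26% of the members and 6.86% of all genes. With STEE it was 1 gene, 1.82%. At the brightest probe sets the widest between the strains was *Tcf7l2*, the Lef/Tcf factor that is typical of the adult thalamus. It had means of 5.69 in SAMR1 + Water, 4.72 in SAMP8 + Water and 4.66 in SAMP8 + STEE. All 4 of its probe sets were lower in SAMP8 + Water, by -0.43 to -1.24, and with STEE they differed by -0.13 to 0.05. *Csnk1a1* was not counted, at 0.26 between the strains at its brightest probe set. Its 4 probe sets ran from -1.32 to 0.26, so that its sign depended on the probe set.

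*Lgr5*, a receptor for R-spondins and a marker of stem cells in the gut, had 4.44, 5.13 and 4.47, higher by 0.69 in SAMP8 + Water and lower by -0.66 with STEE. At the brightest probe sets it was the only gene of the list past 1.2-fold with STEE. The dimmer probe set of *Lgr5* was also highest in SAMP8 + Water, at 0.20 and -0.34. *Lgr6*, of the same list, differed by 0.04 and -0.06 at its brightest probe set. Its other probe set differed by 0.33 between the strains and by -0.56 with STEE, both past 1.2-fold. Among R-spondins, secreted proteins that strengthen Wnt signals, *Rspo1* had 3.86, 4.25 and 4.16 and *Rspo3* had 4.62, 4.99 and 5.15, both past 1.2-fold between the strains. *Rspo2* had 6.34, 6.58 and 6.77, past it only between SAMP8 + STEE and SAMR1 + Water, at 0.43. These 3 genes were higher in both SAMP8 groups than in SAMR1 + Water at their brightest probe sets, while *Rspo4* ran the other way, with 3.34, 3.27 and 3.19. The other probe set of *Rspo2* differed by -0.05 between the strains and by -0.05 between SAMP8 + STEE and SAMR1 + Water. That of *Rspo3* differed by 0.11 between the strains, -0.13 with STEE and -0.02 between SAMP8 + STEE and SAMR1 + Water.

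Secreted inhibitors outside the members went both ways between the strains. *Frzb*, of the *Sfrp* family, had 5.80, 6.21 and 5.96, and its dimmer probe set was also higher in SAMP8 + Water. *Wif1*, which binds Wnt ligands, had 2.62, 2.97 and 2.84 at a low signal. *Sostdc1*, *Sfrp4* and *Sost*, which all inhibit Wnt signals outside the cell, were lower in SAMP8 + Water by -0.49, -0.28 and -0.27. Their means were 4.30, 3.81 and 3.79 for *Sostdc1*, 4.36, 4.08 and 4.16 for *Sfrp4*, and 3.03, 2.76 and 2.76 for *Sost*. Inside the cell *Nlk*, a kinase that restrains Lef/Tcf factors, had 8.99, 9.27 and 9.34. The cell polarity genes *Prickle1* and *Celsr1* were higher in SAMP8 + Water by 0.28 and 0.29, with means of 7.55, 7.83 and 7.83 and of 3.14, 3.43 and 3.34. The 3 probe sets of *Prickle1* ran from -0.09 to 0.28 between the strains. The other probe set of *Sostdc1* differed by -0.44 and that of *Sost* by -0.03.

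Of 16 genes widely used as transcriptional targets of β-catenin, 4 are members (*Axin2*, *Lef1*, *Tcf7* and *Dkk1*). The other 12 had a median difference of -0.01 between the strains and -0.06 with STEE. Between the strains 2 of the 12 (16.7%) reached 1.2-fold, 1 higher and 1 lower, beside 6.86% of all genes. *Apcdd1*, an inhibitor found in vessels of the brain, had 6.79, 6.27 and 6.26, and all 6 of its probe sets were lower in SAMP8 + Water, by -0.14 to -0.52. *Ccnd1*, which drives cells into division, had 7.39, 7.13 and 7.0, lower by -0.26 in SAMP8 + Water. With STEE 1 of the 12 reached 1.2-fold, *Lgr5* (8.33%, beside 2.02% of all genes). At the brightest probe sets 9 of the 12 were lower with STEE and 3 higher, beside 10576 and 10903 of all 22527 genes. *Nkd1*, *Rnf43*, *Znrf3*, *Notum*, *Sp5* and *Myc* lay between -0.16 and 0.04 there, although another probe set of *Nkd1* was at 0.21.

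Markers of other brain regions differed between the same groups. Of all genes, 3.68% were at least 1.2-fold higher and 3.19% lower in SAMP8 + Water than in SAMR1 + Water. With STEE 2.02% of all genes were that far apart. Of 9 striatal genes, all 9 were, at their brightest probe sets, at least 1.2-fold higher in SAMP8 + Water than in SAMR1 + Water, by 0.32 to 0.89, and their average log2 signal was 7.72 in SAMR1 + Water, 8.32 in SAMP8 + Water and 8.38 in SAMP8 + STEE. Of 10 thalamic genes other than *Lef1* and *Tcf7l2*, 6 were at least 1.2-fold lower in SAMP8 + Water at their brightest probe sets, and none was that far higher. The averages of the 10 were 6.30, 5.91 and 5.86. *Rora*, counted as lower at -0.28, had 9 probe sets that ran from -0.28 to 0.82. Between SAMP8 + STEE and SAMR1 + Water 7 of these 10 were lower past 1.2-fold, as *Lef1* was. With STEE 3 of the 10 were past 1.2-fold. *Calb2* and *Zic1* were lower by -0.73 and -0.65, beside -0.18 for *Lef1*, and *Plekhg1* was higher by 0.42. In bulk tissue, fewer cells of a type and less RNA per cell cannot be told apart. The part of these marker differences in those of *Lef1*, *Tcf7l2* and the other genes was not tested.

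Of 8 hippocampal genes 4, and of 9 choroid plexus genes 4, were at least 1.2-fold lower in SAMP8 + Water at their brightest probe sets, *Ttr* by -1.96. Of all genes 3.19% were that far lower. Other probe sets of *Prox1*, *Clic6* and *Kl*, which were not counted, were at -0.76, -0.44 and -0.34. Of 7 myelin genes 4 were lower, of 8 genes of meninges and fibroblasts 2 were lower, and of 8 endothelial genes 1 was lower. None of 6 astrocyte genes was past that bar at its brightest probe set, although another probe set of *Gja1* was, at 0.61. With STEE no gene of the hippocampal, meningeal, endothelial, astrocyte or myelin lists was past it at the brightest probe sets. In the choroid plexus list 1 gene was, *Ttr* at 1.09. Other probe sets of *Mbp* and *Clic6* reached 0.30 and 0.27 with STEE. The 6 markers of cortical excitatory neurons, which check the labelled tissue, averaged 8.14, 8.14 and 8.30, and all 6 were higher with STEE, by 0.02 to 0.30.

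**Figure D5:**
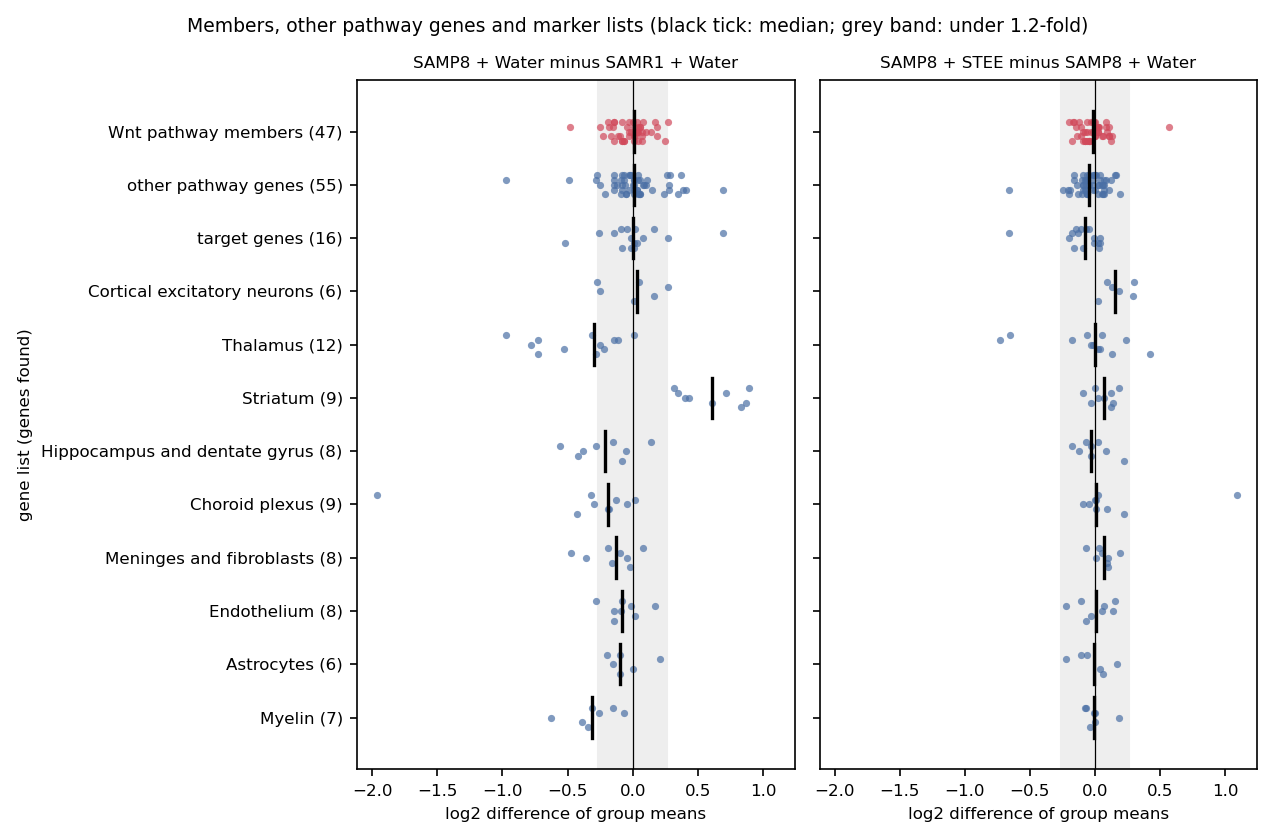
Log2 difference (horizontal axis) of each gene at its brightest probe set for the 47 members (red), the other pathway genes, target genes and marker lists (blue), with SAMP8 + Water minus SAMR1 + Water on the left and SAMP8 + STEE minus SAMP8 + Water on the right. Black ticks are medians and the grey band is under 1.2-fold. The medians of the members, 0.01 and -0.02, lie near 0, the 9 striatal genes all lie to the right of the band in the strain comparison, and *Tcf7l2* (-0.97) lies well to its left.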

How the data were processed

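Biotinylated cRNA was hybridised to Affymetrix mouse array strips. Expression Console was used by the authors for RMA, and Transcriptome Analysis Console, version 4, for the group comparisons. The deposited log2 values are averages of a group, and the file headers call them bi-weight averages. RMA puts all arrays on a common distribution, which hides a shift shared by all genes. The 2 tables also hold signed fold changes, ANOVA p-values and FDR p-values of the authors' comparisons, which were not used. The SAMP8 + Water means differed between the tables for 0 probe sets.

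Symbol cells were split, each gene was read from its brightest probe set, and group means were subtracted (Python 3.11.15, numpy 2.4.6, pandas 2.3.3, matplotlib 3.10.9). A difference was counted at 1.2-fold (0.263 on the log2 scale) or more. The calculation was tested on simulated data. Any member could be named. Values of all groups were to be given for members past 1.2-fold in the strain or STEE comparison, the 3 brightest of each role and the core genes of the pathway, and for other pathway genes past 1.2-fold. Further members with wide or contrasting values and the targets *Nkd1*, *Rnf43*, *Znrf3*, *Notum*, *Sp5* and *Myc* were picked after their values were seen. Members, lists and thresholds were chosen with earlier results of these data known. Of the marker symbols, *Drd1* was matched through the RefSeq synonym Drd1a. Genome build and probe positions are not given in the sources used here. Tried as alternatives were thresholds of 1.1-fold and 1.5-fold, the mean of all probe sets of a gene, 2 filters on probe sets, filters on signal and centring.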

Additional observations from a re-analysis of the deposited data

How the results depend on the processing

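The number of members at least 1.2-fold apart, 2 between SAMP8 + Water and SAMR1 + Water, 1 between SAMP8 + STEE and SAMP8 + Water and 3 between SAMP8 + STEE and SAMR1 + Water, depended on the threshold and on how the probe sets of a gene were joined. At 1.1-fold it was 16, 7 and 16, and at 1.5-fold 0, 0 and 0, where 1.16%, 0.164% and 1.18% of all genes were past it. With the mean of all probe sets of a gene it was 0 (4.99% of all genes), 0 (1.27%) and 2 (5.67%), the latter *Dkk3* and *Sfrp2*. Without probe sets of several genes, without those named _s_ or _x_, or centred on the median of all probe sets (0, 0 and -0.01), the counts and the genes counted stayed as they were. Without the 16 members at or below the median signal in every group they did too, while the share of all genes was 10.5%, 2.83% and 11.3%, but *Sfrp2* passed that filter only through the group where it was highest. By the mean over groups, a filter chosen after seeing the data, 28 members were left, and 2, 1 and 2 of them were past 1.2-fold, without *Sfrp2* (10.3%, 2.71% and 11.1% of all genes). The median difference of the members between the strains turned from 0.01 to -0.023 with the mean of all probe sets. That setting changed the sign of 21 of 141 differences, none of them a difference past 1.2-fold, and moved 72 by more than 0.02. Probe sets named _s_ or _x_ were the only ones of *Wnt3*. Leaving out a mouse was not possible with group means. No paired analysis was possible because the tables used give averages over the mice of a group.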
